A study of Mus musculus with 18 samples.

Results

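The comparison described here is that of mouse embryoid bodies left without doxycycline at 48 h with those left without it at 24 h, counted from day 2 of differentiation. Its group means rest on 6 of the 18 arrays of the series, 3 titled as 48 h without doxycycline and 3 titled as 24 h without it. The embryonic stem cells were of 129P2 strain background and of 1 engineered line, A2lox, with a doxycycline-inducible, Flag-tagged Msgn1 cassette; both groups carry this cassette and neither received the drug. Before that the cells had been cultured on mouse embryonic fibroblasts arrested with mitomycin, in the presence of LIF. For differentiation they were plated in medium with serum and ascorbic acid, for which no LIF is named, and moved on day 2 to low-attachment wells. The labels call the 3 arrays of a group biological replicates, without saying which cultures were separate. The p-values therefore measure the spread between arrays of a group, estimated jointly from all 18 arrays. The other arrays are 3 uninduced ones at 12 h and 9 induced with 1 µg/ml doxycycline, 3 each at 12, 24 and 48 h.

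Embryoid bodies are floating aggregates in which stem cells leave the pluripotent state and form cells like those of the gastrulating embryo. In the embryo, Wnt, Nodal and Bmp signals set up the primitive streak, a strip of the epiblast where cells lose their epithelial form and move inward. Cells from its anterior end become definitive endoderm and axial mesoderm, and cells from its middle and posterior parts become heart, blood, paraxial and lateral mesoderm.

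Signals were the authors' linear intensities, whose 2% trimmed mean, computed here from the deposited values, was 150 on every array. Array medians lay between 18.8 and 22.0 at 48 h and between 19.8 and 22.1 at 24 h, and replicates of a group correlated at 0.990 to 0.994 on the log2 scale. The 3′ to 5′ signal ratio of the Actb control probe sets, a measure of RNA quality, was 1.63 to 1.76 at 48 h and 1.62 to 1.95 at 24 h. Changes below are 48 h minus 24 h differences of group means of log2(signal + 32), each with its standard error from the fit, and each fold is 2 to the power of that difference. The offset understates the change of dim genes. Precision is limited by the number of arrays. In bulk samples a smaller share of cells of a type and less RNA per cell cannot be told apart.

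Across the 14282 genes tested, limma called 3506 (24.5%) at an adjusted p under 0.05. Of these, 1830 were higher at 48 h, which is 12.8% of the genes tested, and 1676 were lower, which is 11.7%. Counts of list members below stand against these shares, and no list was tested as a set. Lists share some genes, so their counts are not independent. Arrays of the 2 times did not overlap in 2664 genes (18.7%) with 48 h higher and in 2683 (18.8%) with 48 h lower. Of the 1830 called higher 1753 were without overlap, and of the 1676 called lower 1595. Separate arrays, given below for single genes, therefore add little to a call. At least 2-fold changes were fewer, with 118 higher (0.826%) and 112 lower (0.784%). The median change over all genes was -0.014. In the 12 h step before, 24 h minus 12 h, 314 genes were higher and 260 lower (4.02% together); that step shares the 24 h arrays. Its counts depended on single arrays: without 24 h replicate 3 they were 474 and 440, and without 24 h replicate 1, 24 h replicate 2, 12 h replicate 1 or 12 h replicate 2 they lay between 100 and 165 higher and between 89 and 125 lower.

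**Figure D1:**
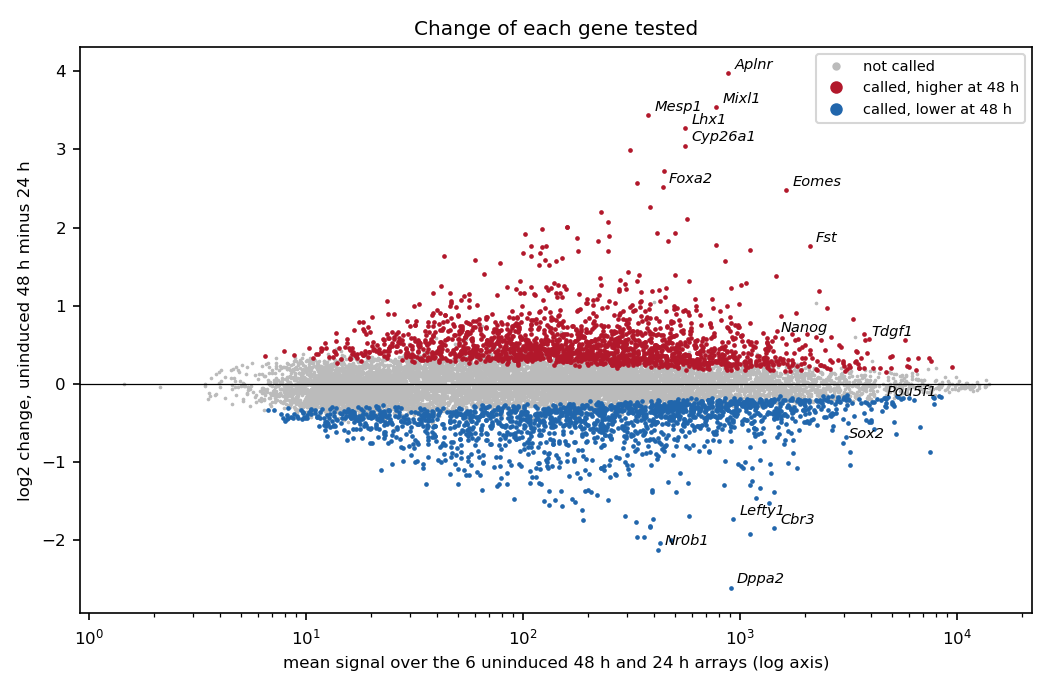
Change of each of the 14282 genes tested (y axis, log2, uninduced 48 h minus 24 h) against its mean signal over the 6 arrays (x axis, log scale). Red points are the 1830 genes called higher at 48 h and blue points the 1676 called lower; the named rises reach 3.98 (Aplnr) and the falls -2.60 (Dppa2).

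The embryoid bodies were checked against stem cell markers. Pou5f1, the central pluripotency factor gene, had signals of 4419, 4036 and 3899 at 48 h, against 4744, 4546 and 5006 at 24 h. All 3 arrays at 48 h were below those at 24 h by a small margin, and the change was -0.21 ± 0.0641 (limma adjusted p = 0.0197). That call ended without 24 h replicate 3, 48 h replicate 2 or 48 h replicate 3, where the adjusted p reached 0.0951, and with variances fitted without a trend (adjusted p = 0.063). Sox2, a partner of Pou5f1 that neural cells also use, had 2104, 2192 and 2319 at 48 h, against 3589.7, 3624 and 3976 at 24 h, a fall of 1.68-fold (adjusted p = 1.48e-07). Nanog, a further pluripotency factor gene that is also transcribed in the streak, went the other way: its signals were 1821, 1741 and 1677 at 48 h, against 1046, 1083 and 1294 at 24 h. The groups did not overlap for Sox2 or Nanog, and Nanog rose by 0.61 ± 0.0806 (adjusted p = 7.53e-06). Msgn1 itself, the presomitic mesoderm factor of the cassette, was dim, with 5.05, 8.68 and 4.69 at 48 h and 12.0, 16.3 and 5.22 at 24 h. Those ranges overlapped, all lay below the offset, and the change of -0.17 ± 0.116 did not pass (adjusted p = 0.312). Brachyury (T), the classical streak marker, has no probe set matched to 1 gene and was not tested.

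The 15 largest rises included regulators of the primitive streak and of the mesoderm and endoderm that leave it. Like the 15 largest falls, they were drawn only from called genes without overlap between the groups. Separate arrays among these genes follow from that rule. Aplnr, which encodes the apelin receptor of early mesoderm, had signals of 1627, 2046 and 1398 at 48 h, against 64.1, 63.0 and 105 at 24 h, a 15.8-fold rise (log2 change 3.98 ± 0.193, adjusted p = 2.69e-12). Mixl1, a homeobox gene of the streak, had 1458, 1711 and 1179 at 48 h, against 86.2, 65.2 and 143 at 24 h, and rose 11.6-fold (adjusted p = 1.26e-11). Mesp1, a basic helix-loop-helix factor gene of the first mesoderm and of heart precursors, had 721, 829 and 601 at 48 h, against 43.1, 24.4 and 43.7 at 24 h. Its 24 h arrays were near the offset of 32 and its 48 h arrays far above them, a 10.9-fold rise (adjusted p = 2.69e-12). Lhx1, a LIM homeobox gene of the anterior streak and node, had 1213, 1081 and 830.1 at 48 h, against 66.2, 76.2 and 91.3 at 24 h (9.70-fold, adjusted p = 5.31e-12). Eomes, a T-box gene needed for mesoderm and endoderm formation, was the brightest of the 15 largest rises, with 2871, 2848 and 2619 at 48 h, against 427, 369 and 658 at 24 h. It was already measurable on all 24 h arrays, where replicate 3 was the highest, and rose 5.59-fold (adjusted p = 3.25e-10).

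Endoderm and axial factors were among the same 15. Foxa2, a forkhead factor gene of the anterior streak, node and endoderm, had 844, 749 and 724 at 48 h, against 111, 90.6 and 127 at 24 h (5.71-fold, adjusted p = 6.78e-10). Sox17, an endoderm factor gene, had 727, 518 and 544 at 48 h, against 78.3, 68.8 and 70.2 at 24 h (5.96-fold, adjusted p = 5.57e-11); its probe set is of a type that can match other transcripts. Both genes had tight 24 h arrays and 48 h arrays several times higher.

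The 15 largest rises held 8 further genes. Cyp26a1, whose product breaks down retinoic acid, had 1008, 1132 and 924 at 48 h, against 112, 73.3 and 102 at 24 h (8.28-fold). Frzb, a secreted Wnt antagonist gene, had 633, 619 and 481 at 48 h, against 45.0, 43.9 and 43.7 at 24 h (7.95-fold). The 24 h arrays of Frzb lay close together and well below every 48 h array. Rspo3, whose product strengthens Wnt signalling at the receptor, had 299, 276 and 247 at 48 h, against 43.9, 43.6 and 43.4 at 24 h (4.03-fold); 1 of its 2 probe sets was called. Sp5, a zinc finger factor gene directly activated by Wnt signalling, had 819.9, 863 and 706 at 48 h, against 81.9, 73.5 and 129.8 at 24 h (6.61-fold). Dkk1, a Wnt antagonist gene whose product binds the Lrp co-receptors, had 451, 352 and 388 at 48 h, against 66.5, 52.6 and 65.4 at 24 h (4.58-fold). Both genes were higher on every 48 h array than on any at 24 h, which the rule for naming them required. Gas1, a membrane-anchored co-receptor gene of Hedgehog signalling, had 936, 1024 and 884 at 48 h, against 209, 195 and 183 at 24 h (4.30-fold). Adamts9, a secreted metalloprotease gene, had 759.8, 718 and 493 at 48 h, against 100.3, 101.5 and 129 at 24 h (4.79-fold). Dgkk, a diacylglycerol kinase gene, had the widest spread of the 15 at 48 h relative to its mean, with 620.3, 438 and 213, against 67.4, 59.4 and 78.6 at 24 h; its 4.21-fold rise had the largest standard error of these genes (log2 change 2.07 ± 0.235). The highest adjusted p among the 15 rises was 9.36e-07, that of Dgkk.

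**Figure D2:**
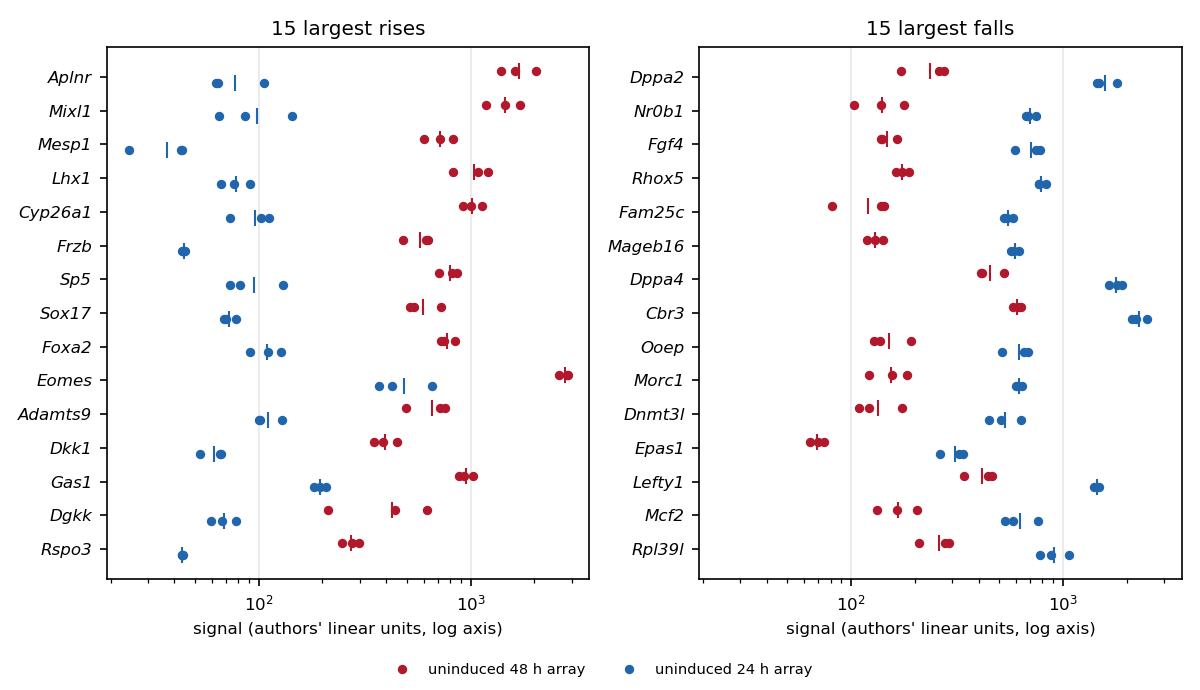
Signal of each array (points; log axis) and group mean (vertical tick) for the 15 largest rises and the 15 largest falls, with uninduced 48 h in red above uninduced 24 h in blue. No gene's groups overlap, which the rule for naming them required; Dgkk at 48 h spreads from 213 to 620.3.

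Promoter sequence is shown for Mesp1 and Sp5 because they alone among the 11 largest rises with a promoter window held the searched Tcf/Lef motif, the site bound by the nuclear effectors of Wnt signalling. The motif searched was CTTTGAT or, on the other strand, ATCAAAG, in the 250 bases before each gene start in RefSeq's table for GRCm38.p6. Capitals mark the match, and both windows read in the direction of the gene. The Mesp1 window is chr7:79793591-79793840 on the minus strand and the Sp5 window chr2:70474673-70474922 on the plus strand.
Mesp1: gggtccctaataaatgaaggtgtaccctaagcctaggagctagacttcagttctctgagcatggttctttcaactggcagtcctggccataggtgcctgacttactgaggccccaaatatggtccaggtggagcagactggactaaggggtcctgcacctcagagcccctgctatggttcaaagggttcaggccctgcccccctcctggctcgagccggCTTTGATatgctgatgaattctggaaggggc
Sp5: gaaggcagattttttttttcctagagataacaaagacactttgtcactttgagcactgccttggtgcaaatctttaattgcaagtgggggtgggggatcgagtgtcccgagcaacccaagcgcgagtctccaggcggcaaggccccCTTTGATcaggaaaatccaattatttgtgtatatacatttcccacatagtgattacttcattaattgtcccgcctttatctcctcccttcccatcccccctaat
The motif was in 3.21% of 32851 windows of that length. It was in 2 of 11 windows of the largest rises and in 0 of 10 of the largest falls, counts too small to compare. The GATA motif AGATAA (other strand TTATCT) was in 9.99% of all windows, in those of Sp5 and Foxa2 among the rises and in that of Fam25c among the falls. The T-box motif TCACAC (other strand GTGTGA) was in 12.3% of all windows, in that of Frzb among the rises and in those of Mageb16 and Dnmt3l among the falls. These matches describe letters in a window and do not show a bound site.

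The list for the primitive streak and nascent mesoderm moved upward in most members. Of its 28 genes 25 were tested, 19 rose, 1 fell and 5 did not pass, and the median change was 1.55; over all genes tested, 12.8% rose, 11.7% fell and the median was -0.014. Beside the genes above, Gsc, a homeobox gene of the anterior streak, had 287, 296 and 236 at 48 h, against 34.7, 56.3 and 41.8 at 24 h (4.01-fold, adjusted p = 1.54e-08). Fgf8, the Fgf ligand gene that streak cells need to migrate, had 803, 996 and 651 at 48 h, against 156, 169 and 247 at 24 h (3.82-fold, adjusted p = 7.01e-09). The chemokine receptor gene Cxcr4, found in nascent mesoderm and endoderm, had 154, 131 and 111 at 48 h, against 22.0, 17.95 and 32.7 at 24 h (2.92-fold, adjusted p = 7.01e-09). No array of one time overlapped the other for these 3 genes. Evx1, a homeobox gene of the posterior streak, and Tbx6, a T-box gene of paraxial mesoderm, are named here after their values were seen. They rose by 1.77 ± 0.153 and 0.59 ± 0.114, and the Tbx6 signals stayed low, with 33.8, 33.0 and 39.5 at 48 h, against 8.48, 14.9 and 15.7 at 24 h. The member that fell was Fgf4, a ligand of the pluripotent epiblast. The members that did not pass, also named after their values were seen, were Msgn1, Nodal (-0.21 ± 0.112), Wnt3a (0.30 ± 0.152), the caudal homeobox gene Cdx2 (0.31 ± 0.149) and Fgf17 (0.03 ± 0.147). Nodal, the ligand that maintains the streak, was bright at both times, with 1106, 916 and 1092 at 48 h and 1137, 1144 and 1322 at 24 h. All its 48 h arrays lay below those at 24 h, though the change did not pass.

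Presomitic and segmenting mesoderm genes moved less. Of 27 listed genes 21 were tested, 9 rose, 1 fell and 11 did not pass, with a median change of 0.27. Next to Cyp26a1 and Rspo3, the Wnt modulator gene Dact1 had 431, 390.3 and 364 at 48 h, against 100.8, 91.8 and 105 at 24 h (3.25-fold, adjusted p = 4.39e-11). Mesp2, the basic helix-loop-helix gene that places somite boundaries, had 122, 117 and 91.7 at 48 h, against 20.4, 22.0 and 21.7 at 24 h (2.65-fold, adjusted p = 5.03e-09). Nrarp, a feedback regulator gene of Notch signalling, had 175, 197 and 211 at 48 h, against 62.6, 73.2 and 64.1 at 24 h (2.29-fold). These 3 genes had separate ranges between times. The fall was that of Tcf15, a basic helix-loop-helix gene of paraxial mesoderm that the early epiblast also expresses. Its signals were 119, 127 and 118 at 48 h, against 266, 279 and 258 at 24 h (log2 change -0.96 ± 0.0848, adjusted p = 2.28e-08).

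In the definitive endoderm list 24 of 25 genes were tested, of which 15 rose, 2 fell and 7 did not pass (median change 0.69). After Sox17, Foxa2, Dkk1 and Gsc, the largest rises were those of Gata6 and Cer1. The zinc finger factor gene Gata6, active in endoderm and in heart mesoderm, had 309, 324 and 255 at 48 h, against 64.1, 53.1 and 57.2 at 24 h (3.63-fold, adjusted p = 7.36e-10). Cer1, a secreted antagonist gene of Nodal, Bmp and Wnt signals, had 427, 263 and 400.2 at 48 h, against 108, 55.9 and 73.5 at 24 h (3.56-fold, adjusted p = 2.50e-06). Its lowest 48 h array was still above its highest 24 h array. Node and axial mesoderm genes, 12 tested of 16, included 5 that rose, 2 that fell and 5 that did not pass (median change 0.33). Chrd, the Bmp antagonist gene of the node, had 80.6, 89.6 and 61.1 at 48 h, against 27.0, 44.9 and 39.8 at 24 h (adjusted p = 0.00325). Foxj1, a gene of ciliated cells such as those of the node, had 46.5, 39.97 and 44.3 at 48 h, against 18.2, 26.7 and 22.3 at 24 h (adjusted p = 0.0017). Both were dim but separate between times. The falls were those of the Nodal antagonist genes Lefty1 and Lefty2, which pluripotent cells express too.

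Lateral and cardiac mesoderm genes moved both ways: of 28 genes 25 were tested, 6 rose, 3 fell and 16 did not pass (median change 0.09). Over all genes tested 12.8% rose and 11.7% fell, so the falls of this list are near that share. Msx1, a homeobox gene that responds to Bmp, had 326, 312 and 293 at 48 h, against 141, 117 and 129.8 at 24 h (adjusted p = 4.87e-08), with a probe set that can match other transcripts. Its relative Msx2 had 77.1, 88.8 and 61.7 at 48 h, against 28.4, 15.1 and 23.6 at 24 h (adjusted p = 2.59e-05). The falls were those of Hopx, a homeodomain-only protein gene of the heart (-1.085 ± 0.0971), Wt1, a zinc finger gene of kidney and epicardium (-0.97 ± 0.119), and Myh6, the atrial myosin heavy chain gene (-0.79 ± 0.0967). Hopx had 60.04, 65.5 and 68.9 at 48 h, against 169, 183 and 169 at 24 h, and the other two were dimmer at both times.

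Blood and endothelial progenitor genes also moved both ways, with 26 tested of 29, 3 higher, 5 lower and 18 that did not pass (median change -0.09). Over all genes tested 12.8% were higher and 11.7% lower, so the rises of this list are near that share. Hhex, a homeobox gene of early endothelium and anterior endoderm, had 336, 241 and 249 at 48 h, against 121, 92.7 and 137 at 24 h (2.06-fold, adjusted p = 1.47e-06). Kdr, the Vegf receptor gene of blood and vessel precursors, had 75.3, 136 and 77.5 at 48 h, against 37.8, 40.5 and 38.1 at 24 h (1.77-fold, adjusted p = 2.11e-04); array 2 was the highest at 48 h. The embryonic globin gene Hbb-bh1 had 44.9, 13.3 and 27.3 at 48 h, against 9.37, 3.66 and 1.081 at 24 h (adjusted p = 0.0137), with 1 of 3 probe sets called. That call ended without 24 h replicate 3 or 48 h replicate 1. Pecam1 (-0.67 ± 0.21), Gata2 (-0.52 ± 0.158) and Tek (-0.45 ± 0.125), endothelial and blood genes, fell from dim levels and each lost the call without at least 2 single arrays. The count of 5 lower members dropped to 1, below the 3 higher, without 24 h replicate 1, to 2 without 48 h replicate 1 and to 3 without 48 h replicate 3.

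**Figure D3:**
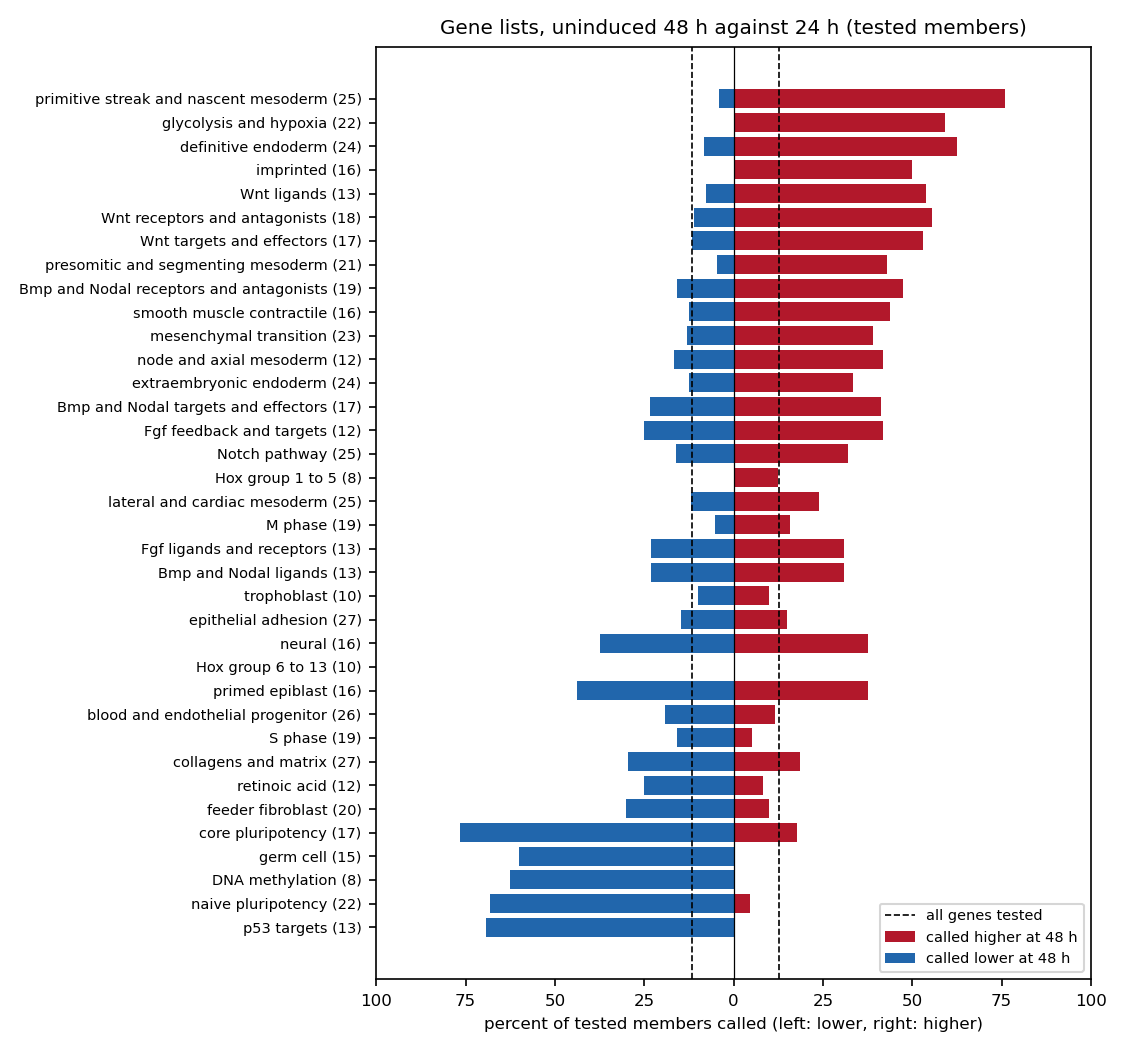
Percent of the tested members of each of the 36 gene lists that were called higher (red, right) or lower (blue, left) at 48 h than at 24 h, with the number tested in brackets. Dashed lines mark the percents over all genes tested, 12.8% higher and 11.7% lower; the primitive streak list reaches 19 of 25 higher and the core pluripotency list 13 of 17 lower.

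Genes of the pluripotent state were among the 15 largest falls. Dppa2, a developmental pluripotency gene, had 261, 172 and 273 at 48 h, against 1478, 1448 and 1800.5 at 24 h, a 6.08-fold fall (log2 change -2.60 ± 0.154, adjusted p = 7.25e-11); its probe set can match other transcripts. Its partner gene Dppa4 had 416, 411 and 527 at 48 h, against 1897, 1802 and 1648 at 24 h (3.77-fold lower, adjusted p = 2.69e-12). Nr0b1, an orphan nuclear receptor gene of naive stem cells, had 138, 103 and 178 at 48 h, against 748, 672 and 686 at 24 h (4.34-fold lower). Each 48 h array was far below every 24 h array for these genes, where the rule for naming them already required no overlap. Fgf4 had 138, 139.8 and 165 at 48 h, against 782, 744 and 591 at 24 h (4.10-fold lower), with 3 of 4 probe sets called. Lefty1 had 443, 341 and 462 at 48 h, against 1471, 1396 and 1454 at 24 h (3.32-fold lower, adjusted p = 4.05e-09). Dnmt3l, the cofactor gene of de novo DNA methylation, had 109, 122 and 173 at 48 h, against 635, 511 and 448 at 24 h (3.39-fold lower), measured by a probe set that can match other transcripts.

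The 15 largest falls held 9 further genes. Rhox5, an X-linked homeobox gene of placenta and testis, had 162, 188 and 173 at 48 h, against 834, 771 and 769 at 24 h (3.99-fold lower). Mageb16, of the melanoma antigen family, had 119, 141 and 129 at 48 h, against 587, 570.1 and 622 at 24 h (3.87-fold lower). Ooep, an oocyte gene, had 128, 137 and 191 at 48 h, against 682, 654 and 513 at 24 h (3.54-fold lower). Morc1, a gene that silences transposons in germ cells, had 184, 122 and 157 at 48 h, against 642, 601 and 611 at 24 h (3.52-fold lower). For these 4 genes the 48 h arrays lay far below those at 24 h, where the rule for naming them already required no overlap. Cbr3, a carbonyl reductase gene, had 579.8, 614 and 634 at 48 h, against 2203, 2127 and 2487 at 24 h (3.59-fold lower). Epas1, which encodes a hypoxia-inducible factor subunit, had 74.1, 69.8 and 64.1 at 48 h, against 322, 263 and 339 at 24 h (3.34-fold lower). Both separate the times, as that rule required. Fam25c (-1.96 ± 0.119), Mcf2 (-1.72 ± 0.127) and the ribosomal protein gene Rpl39l (-1.69 ± 0.126) complete the 15, among which the highest adjusted p was 2.53e-08, that of Dnmt3l.

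The naive pluripotency list had 22 of 24 genes tested, of which 15 fell, 1 rose and 6 did not pass (median change -0.63). Zfp42 (Rex1), a marker gene of naive cells, had 617, 537 and 692 at 48 h, against 1868, 1629 and 1729.7 at 24 h (2.75-fold lower, adjusted p = 3.57e-10). The Kruppel-like factor gene Klf2 had 269, 213 and 304 at 48 h, against 734, 690.2 and 569.7 at 24 h (2.38-fold lower). Dppa3 (Stella) had 71.6, 46.2 and 53.2 at 48 h, against 187, 164 and 191 at 24 h (2.40-fold lower), and the F-box gene Fbxo15 had 241, 192 and 296 at 48 h, against 694, 486 and 428 at 24 h. No array crossed between times for these 4 genes. In the core pluripotency list 17 of 18 genes were tested, 13 fell, 3 rose and 1 did not pass (median change -0.75). Gdf3, a Tgfb family ligand gene of stem cells, had 124, 108 and 137 at 48 h, against 514, 476 and 408 at 24 h (3.21-fold lower). Utf1, a chromatin protein gene of stem cells, had 596, 555 and 736 at 48 h, against 1828, 1706 and 1251 at 24 h (2.45-fold lower). The rises in both lists held Nanog, and the core list also held Tdgf1 and, named after its value was seen, Sall4.

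Primed epiblast genes split: of 16 tested genes of 17, 6 rose, 7 fell and 3 did not pass (median change 0.01). Fst, the follistatin gene, had 3129.9, 3549.6 and 3016 at 48 h, against 891, 677 and 1304 at 24 h (3.41-fold higher, adjusted p = 2.85e-08). Pou3f1 (Oct6), a factor gene of the primed epiblast and of neural progenitors, had 701, 646 and 720.1 at 48 h, against 1568, 1882 and 1898 at 24 h (2.51-fold lower, adjusted p = 1.09e-10). Car14, a carbonic anhydrase gene whose probe set can match other transcripts, rose by 0.93 ± 0.147. The amino acid transporter gene Slc7a3 (-0.89 ± 0.126) and Enpp3 (-0.79 ± 0.122) fell. Fgf5, the standard marker gene of the primed epiblast, had 1654, 1541 and 1564 at 48 h, against 1072, 961 and 1217 at 24 h (1.46-fold higher, adjusted p = 0.00534). Members of this list with separate ranges thus stood on both sides.

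**Figure D4:**
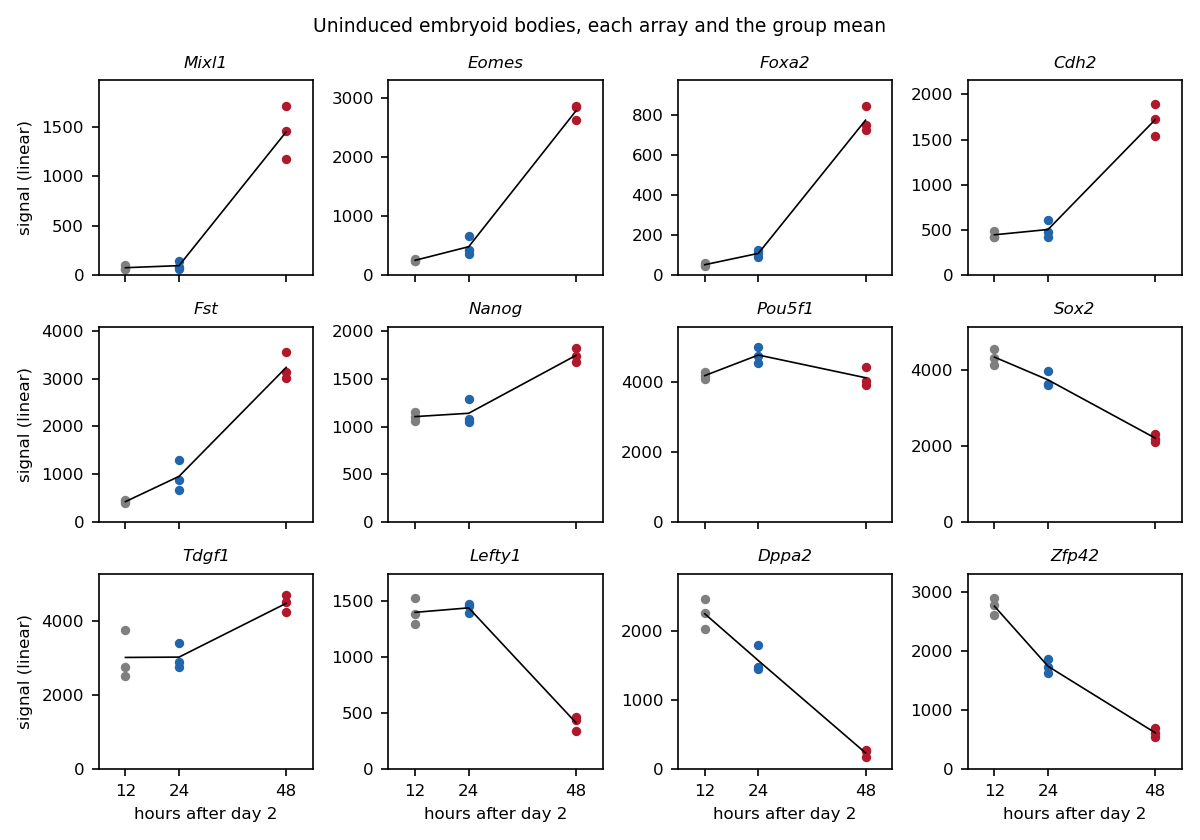
Signal (y axis, linear, from 0) of 12 genes on each uninduced array at 12, 24 and 48 h after day 2 (x axis), with a line through the group means. Mixl1 and Cdh2 differ little between 12 h and 24 h and are far higher at 48 h, Nanog and Tdgf1 are highest at 48 h, and Dppa2 and Zfp42 are lower at each later time.

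Genes of DNA methylation and germ cells had no member that rose, although 1 germ cell gene did when probe sets were averaged. Of 10 DNA methylation genes 8 were tested, 5 fell and 3 did not pass (median change -0.43). Dnmt3a, a de novo methyltransferase gene, had 1208, 1035 and 1056 at 48 h, against 2222, 2178 and 2313 at 24 h (2.01-fold lower), with 3 of 5 probe sets called. The hydroxylase gene Tet1 fell (-0.52 ± 0.159) with 1 of 4 probe sets called, and lost the call when probe sets were averaged (adjusted p = 0.307) and without 24 h replicate 3 or 48 h replicate 3 (adjusted p up to 0.134). Its relative Tet2 had 81.0, 89.6 and 73.1 at 48 h, against 123, 144 and 106 at 24 h. In the germ cell list 15 of 17 genes were tested, of which 9 fell and 6 did not pass (median change -0.55). Tdrd12, a gene of the small RNA pathway of germ cells, had 46.7, 54.5 and 52.6 at 48 h, against 200.5, 223 and 212 at 24 h. Mael, of the same pathway, had 52.99, 73.4 and 53.3 at 48 h, against 189, 213 and 208 at 24 h. Both were lower on every 48 h array. Ifitm3, a gene of primordial germ cells and of antiviral defence, had 721, 645 and 696 at 48 h, against 2147, 1998 and 1933 at 24 h (2.86-fold lower, adjusted p = 2.69e-12). Dazl, an RNA-binding protein gene of germ cells, fell (-0.91 ± 0.115), as did Stk31 (-0.74 ± 0.104). The summed signal of the list was 4309 to 4453 at 48 h and 7029 to 7456 at 24 h, with no overlap.

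Wnt pathway genes had more rises than falls in each of 3 lists, those of ligands, of receptors with antagonists, and of targets. Of 15 ligand and R-spondin genes 13 were tested, 7 rose, 1 fell and 5 did not pass (median change 0.37). Wnt8a, a posterior ligand gene, had 159, 185 and 159 at 48 h, against 59.8, 50.4 and 65.5 at 24 h (2.20-fold, adjusted p = 1.42e-06). Wnt3, the ligand gene that the streak requires, had 48.4, 66.8 and 53.1 at 48 h, against 16.8, 22.8 and 22.2 at 24 h (1.67-fold, adjusted p = 2.54e-04). Wnt5a had 91.8, 102 and 64.7 at 48 h, against 27.0, 31.4 and 22.9 at 24 h (1.98-fold). Ranges were separate for all 3 ligands, and the probe sets of Wnt3 and of Wnt5b (0.84 ± 0.121) can match other transcripts. Wnt11 rose by 0.71 ± 0.135. Among 18 tested receptor and antagonist genes of 20, 10 rose, 2 fell and 6 did not pass (median change 0.37). Beside the antagonists Frzb, Dkk1 and Cer1, the receptor gene Fzd1 had 259, 199 and 169 at 48 h, against 78.4, 72.5 and 83.6 at 24 h (2.16-fold, 1 of 2 probe sets called). Fzd3 rose by 0.87 ± 0.124 with 1 of 4 probe sets called, and Fzd2 by 0.66 ± 0.0931.

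Wnt targets and effectors had 17 of 20 genes tested, of which 9 rose, 2 fell and 6 did not pass (median change 0.43). Sp8, a zinc finger relative of Sp5, had 240.0, 222 and 178 at 48 h, against 42.3, 28.5 and 50.5 at 24 h (3.40-fold, adjusted p = 3.10e-09). Axin2, the feedback gene most used as a readout of Wnt signalling, had 278, 290.1 and 258 at 48 h, against 107, 98.6 and 150.4 at 24 h (2.06-fold, adjusted p = 2.36e-06). Lgr5, an R-spondin receptor gene, had 91.1, 70.3 and 59.8 at 48 h, against 13.6, 15.3 and 29.5 at 24 h (2.06-fold), and the inhibitor gene Nkd1 had 58.8, 59.2 and 55.4 at 48 h, against 22.1, 20.2 and 16.7 at 24 h. These targets were separate between times.

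Bmp and Nodal ligand genes moved both ways, with 13 of 15 tested, 4 higher, 3 lower and 6 that did not pass (median change 0.17). Bmp2 had 182, 185 and 227 at 48 h, against 44.0, 37.6 and 38.9 at 24 h (3.18-fold, adjusted p = 4.71e-08), and Bmp7 had 72.2, 66.3 and 82.8 at 48 h, against 18.05, 33.4 and 27.5 at 24 h. The Nodal co-receptor genes Cfc1 and Tdgf1 (Cripto) rose too. Cfc1 had 266, 265 and 254 at 48 h, against 128, 100.3 and 76.1 at 24 h (2.23-fold), and Tdgf1, bright throughout, had 4246, 4701 and 4522 at 48 h, against 2905, 3417 and 2775 at 24 h (1.48-fold). Inhba fell (log2 change -0.41 ± 0.144, adjusted p = 0.0418), a call lost when any 1 of 5 arrays was left out. The count of 3 lower ligand genes dropped to 1 without 24 h replicate 2, 48 h replicate 1 or 48 h replicate 3. Of 19 tested receptor and antagonist genes of 21, 9 rose, 3 fell and 7 did not pass (median change 0.31). Tgfbr3, the betaglycan co-receptor gene, had 454, 425 and 359.9 at 48 h, against 90.3, 75.9 and 96.4 at 24 h (3.72-fold, adjusted p = 3.14e-10). Lefty2 had 531, 583 and 566 at 48 h, against 924, 897 and 1013 at 24 h (1.65-fold lower). The antagonists therefore stood on both sides, with Fst, Cer1 and Chrd higher and both Lefty genes lower.

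Bmp and Nodal targets and effectors, 17 tested of 18, held 7 that rose, 4 that fell and 6 that did not pass (median change 0.20). Smad1, a Bmp signal transducer gene, had 1315, 1363 and 1174 at 48 h, against 467, 503 and 628 at 24 h (2.34-fold), with a probe set that can match other transcripts. Smad3, a Nodal signal transducer gene, had 339, 369.9 and 338 at 48 h, against 166, 187 and 169 at 24 h (1.85-fold, 1 of 3 probe sets called). The inhibitory Smad6 rose by 0.79 ± 0.123. Id2, a classical Bmp target gene, had 555, 426 and 529.5 at 48 h, against 876, 869 and 1068 at 24 h (1.81-fold lower, adjusted p = 3.58e-06). Smad1 and Smad3 rose while Id2 fell, each with separate arrays.

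Fgf ligand genes moved both ways. Of 13 ligand and receptor genes, all tested, 4 rose, 3 fell and 6 did not pass (median change 0.03). Over all genes tested 12.8% rose and 11.7% fell. Fgf8 and Fgf5 rose and Fgf4 fell, as given above. Fgf3 had 59.4, 74.5 and 64.9 at 48 h, against 26.7, 22.8 and 14.2 at 24 h (adjusted p = 1.62e-04), and Fgf10 had 36.1, 43.7 and 31.6 at 48 h, against 8.61, 17.4 and 14.8 at 24 h. Fgf15, a ligand gene of the neural plate, had 101.3, 116 and 92.2 at 48 h, against 288, 235 and 193 at 24 h (1.99-fold lower). Of 12 tested feedback and target genes of 13, 5 rose, 3 fell and 4 did not pass (median change 0.06). The phosphatase gene Dusp6 had 2476, 2110.2 and 2100.2 at 48 h, against 1346, 1341 and 1783 at 24 h (1.49-fold, adjusted p = 3.30e-04). Spred1 (0.62 ± 0.0799), Fos (0.94 ± 0.168) and Egr1 (0.67 ± 0.179) rose, though Egr1 was not called without 24 h replicate 3 or 48 h replicate 1 (adjusted p up to 0.0638), while the inhibitor gene Spry4 (-0.47 ± 0.11) and the factor gene Etv5 (-0.41 ± 0.102) fell. The number of rises dropped from 5 to 3 without 48 h replicate 1.

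Notch pathway genes, 25 tested of 25, included 8 that rose, 4 that fell and 13 that did not pass (median change 0.16). The target gene Hes1 had 297, 271 and 297 at 48 h, against 142, 173 and 120.4 at 24 h (1.82-fold, adjusted p = 3.46e-05). The ligand gene Jag1 had 603, 552 and 448 at 48 h, against 281, 242 and 323 at 24 h (1.80-fold), and Dll3 had 246, 270.4 and 246 at 48 h, against 135, 136 and 125 at 24 h (1.75-fold). The coactivator gene Maml1 rose by 0.53 ± 0.0798, and Dtx1, a ubiquitin ligase gene of the pathway, fell (-0.66 ± 0.0936). In the retinoic acid list 12 of 16 genes were tested. Cyp26a1 was the 1 gene that rose, 3 fell and 8 did not pass (median change -0.16). The receptor gene Rarg (-0.48 ± 0.148), the binding protein gene Crabp1 (-0.46 ± 0.155) and Stra8 (-0.44 ± 0.123) fell, and each lost the call without some single arrays (adjusted p up to 0.157). The count of falls was 1 without 24 h replicate 2 or 48 h replicate 1.

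Of the 23 genes of the mesenchymal list, all tested, 9 rose, 3 fell and 11 did not pass (median change 0.21). Cdh2, the N-cadherin gene that cells switch to in the streak, had 1888, 1730.2 and 1540.5 at 48 h, against 483, 424 and 612 at 24 h (3.28-fold, adjusted p = 3.35e-10). Cdh11, a mesenchymal cadherin gene, had 685, 807 and 536 at 48 h, against 159, 121 and 178 at 24 h (3.82-fold, adjusted p = 3.57e-10). The growth factor receptor gene Pdgfra, found in mesoderm and in extraembryonic endoderm, had 184, 260.3 and 174 at 48 h, against 33.4, 33.5 and 47.1 at 24 h (3.37-fold, 2 of 3 probe sets called). Each of these had all 48 h arrays above all 24 h arrays. S100a6 (-0.92 ± 0.123) and S100a4 (-0.88 ± 0.139), calcium-binding protein genes, fell. The 3 falls of the mesenchymal list are near the share over all genes tested, 11.7%. The epithelial adhesion list, 27 tested of 28, had 4 members that rose, 4 that fell and 19 that did not pass (median change 0.05). Both counts are near the shares over all genes tested, 12.8% higher and 11.7% lower. Rises were those of keratin and desmosome genes: Krt8 had 1672, 1291 and 1338 at 48 h, against 621, 557 and 553 at 24 h (2.40-fold). Krt19 rose 2.87-fold, and Dsp 2.63-fold with a probe set that can match other transcripts. The falls included Grhl2, a factor gene of the epithelial programme, with 276, 251 and 297 at 48 h, against 549, 455 and 626 at 24 h (1 of 4 probe sets called), Grhl1 (-0.70 ± 0.159) and the claudin gene Cldn4 (-0.64 ± 0.107).

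Smooth muscle and contractile genes, 16 tested of 17, held 7 rises, 2 falls and 7 that did not pass (median change 0.19). The actomyosin genes Cald1 (0.75 ± 0.0875), Tpm4 (0.66 ± 0.0774), Tagln (0.64 ± 0.119) and Myh10 (0.64 ± 0.107) rose, and Myl9 (-0.64 ± 0.123) and Acta2 (-0.51 ± 0.101) fell. These 2 falls are near the share over all genes tested, 11.7%. Collagen and matrix genes, 27 tested of 29, had 5 higher, 8 lower and 14 that did not pass (median change -0.24). Over all genes tested 12.8% were higher and 11.7% lower. The basement membrane collagen gene Col4a1 had 331, 411 and 298 at 48 h, against 222, 172 and 188 at 24 h. Its neighbour Col4a2 had 127, 131 and 111 at 48 h, against 91.3, 49.5 and 72.0 at 24 h. Tnc (-0.998 ± 0.155), Col18a1 (-0.87 ± 0.0751) and Postn (-0.77 ± 0.149) fell. The balance rested on single arrays: there were 5 higher and 4 lower matrix genes without 48 h replicate 3, which turns it, and 4 higher and 5 lower without 24 h replicate 1, and that of higher ones was 3 without 48 h replicate 1.

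Markers of other cells that the cultures could hold were followed as lists. The feeder fibroblast list, 20 tested of 25, had 2 genes that rose, 6 that fell and 12 that did not pass (median change -0.29), and its summed signal was 2849 to 3162 at 48 h and 2978 to 3442 at 24 h. Falls were those of Ccl2 (-0.89 ± 0.139), S100a4, Postn, Timp1 (-0.70 ± 0.0982), Mmp3 (-0.70 ± 0.175) and 1 more gene, while the matricellular gene Ccn1 rose (0.98 ± 0.151); under quantile normalization 10 fell. Postn and S100a4 are also in the matrix and mesenchymal lists, and the part of fibroblasts in those falls was not tested. The 2 rises of the fibroblast list are near the share over all genes tested, 12.8%. Extraembryonic endoderm genes, 24 tested of 28, had 8 rises, 3 falls and 13 that did not pass (median change 0.04), and summed signals of 5105 to 5549 at 48 h and 4849 to 5570 at 24 h. The rises were led by Gata6 and Pdgfra, which embryonic cells also express, Col4a1, Col4a2 and Gata4 (0.67 ± 0.122), and numbered 5 without 48 h replicate 1. The 3 falls are near the share over all genes tested, 11.7%. They became 1 without 48 h replicate 1, with the compared arrays alone or with the filter at the 60th percentile. The defining genes Afp, Ttr and Apoa1 did not reach the filter, with no array of the series above 7.78, 14.3 and 23.4.

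Neural genes, 16 tested of 26, rose in 6 cases, fell in 6 and did not pass in 4 (median change -0.08), with summed signals of 3247 to 3817 at 48 h and 2420 to 2918 at 24 h. Nes, an intermediate filament gene of progenitors, had 208, 221 and 218 at 48 h, against 87.2, 81.7 and 69.0 at 24 h (2.23-fold, adjusted p = 5.10e-05). Sox11 had 1307, 1157 and 1046 at 48 h, against 497, 560.4 and 661 at 24 h (1.99-fold). The fatty acid binding protein gene Fabp7 (0.99 ± 0.139) and the adhesion gene Ncam1 (0.72 ± 0.122) rose as well. Neurod1, a neurogenic factor gene, had 31.0, 32.8 and 33.4 at 48 h, against 127, 129 and 193 at 24 h (2.78-fold lower), and the neuronal tubulin gene Tubb3 had 107, 70.9 and 90.9 at 48 h, against 220.3, 192 and 188 at 24 h (1.92-fold lower). The neural plate marker Sox1 did not reach the filter, with no array of the series above 16.7.

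Glycolysis and hypoxia genes had 22 of 24 members tested, of which 13 rose, none fell (1 did without 24 h replicate 1 and 1 without 24 h replicate 3) and 9 did not pass (median change 0.33). The stress response gene Ndrg1 had 689, 843 and 673 at 48 h, against 157, 337 and 110.1 at 24 h (3.55-fold, adjusted p = 1.24e-04), with a probe set that can match other transcripts. The mTOR inhibitor gene Ddit4 had 2899.5, 3305 and 3139 at 48 h, against 1197, 2469 and 827 at 24 h (2.27-fold, adjusted p = 0.00971). Egln3, an oxygen-sensing hydroxylase gene, had 452, 509.7 and 470.4 at 48 h, against 188, 337 and 147 at 24 h (2.09-fold). In all 3 genes 24 h replicate 2 was the highest of its group and replicate 3 the lowest, and the 48 h arrays lay close together. The collagen hydroxylase gene P4ha1 (0.84 ± 0.222), the aldolase gene Aldoc (0.78 ± 0.236) and the vascular growth factor gene Vegfa (0.71 ± 0.17) also rose. The count of 13 dropped to 8 without 24 h replicate 1, to 5 without 24 h replicate 3 and to 9 without any 1 of the 48 h arrays. It was 15 without 24 h replicate 2. Ddit4, P4ha1 and Aldoc lost the call without 24 h replicate 3 (highest adjusted p over the arrays left out 0.106). Aldoc also lost it without 24 h replicate 1, 48 h replicate 2 or 48 h replicate 3.

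The step before sets these changes in time, as far as groups that share the 24 h arrays allow. That first step covers 12 h and the second 24 h, so their sizes do not compare rates. Eomes had means of 254 ± 13.4 at 12 h, 485 ± 153 at 24 h and 2779.5 ± 139.6 at 48 h (SD, n = 3 each), with changes of 0.81 ± 0.164 in the first step and 2.48 ± 0.164 in the second (limma adjusted p = 0.00682 and 3.25e-10). Foxa2 had means of 53.01 ± 9.34, 109 ± 18.3 and 772 ± 63.3 at 12, 24 and 48 h, and its first step was 0.73 ± 0.175 (adjusted p = 0.0205). Fst had 429.8 ± 31.4, 957 ± 319 and 3232 ± 281, and its first step was 1.05 ± 0.158 (adjusted p = 8.95e-04). These 3 genes were called in both steps. Calls of single genes in the first step were not recomputed without single arrays, on which the counts of that step depended. Aplnr had 65.9 ± 22.9, 77.5 ± 24.2 and 1690.3 ± 329, with a first step of 0.17 ± 0.193 that did not pass. Mesp1 had 30.8 ± 11.02, 37.1 ± 10.99 and 717 ± 114, and its first step of 0.14 ± 0.165 did not pass either. Among the falls, Zfp42 had 2760.5 ± 142, 1742 ± 120.2 and 615 ± 77.3 at the 3 times, with a first step of -0.66 ± 0.0974 (adjusted p = 8.75e-04). Epas1 had 581 ± 38.1, 308 ± 39.7 and 69.3 ± 5.03, with a first step of -0.85 ± 0.108 (adjusted p = 1.77e-04). Lefty1 had 1401 ± 119, 1441 ± 39.2 and 415 ± 65.1, with a first step of 0.04 ± 0.135 that did not pass. In that first step 3 of 25 streak genes rose and 1 fell, against a background of 2.20% higher and 1.82% lower over all genes.

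Whether Msgn1 induction altered the change between 24 h and 48 h was tested as the difference of the 48 h minus 24 h change, induced minus uninduced. The series holds no cells given doxycycline without the cassette, so effects of the drug and of Msgn1 cannot be told apart. Limma called 444 genes (3.11%), 209 with a higher change under induction (1.46%) and 235 with a lower one (1.65%). In the streak list 4 of 25 tested genes had a lower change and none a higher one. Foxa2 had 116, 218 and 169.6 at 48 h, against 122, 66.0 and 139 at 24 h in induced arrays, so its change there was 0.51 ± 0.175, against 2.51 ± 0.175 in uninduced arrays (difference -2.001 ± 0.247, adjusted p = 4.05e-05). Eomes had 1919, 3286 and 2849 at 48 h, against 1241, 1522 and 1595 at 24 h in induced arrays, a change of 0.84 ± 0.164, against 2.48 ± 0.164 in uninduced arrays (difference -1.64 ± 0.232, adjusted p = 2.00e-04). At 24 h the induced arrays of Eomes all lay above the uninduced ones, and those of Foxa2 overlapped them. Aplnr changed by 2.25 ± 0.193 in induced arrays, against 3.98 ± 0.193 in uninduced ones (difference -1.73 ± 0.273, adjusted p = 6.44e-04). The induced arrays of Aplnr nevertheless lay above the uninduced ones at both times. Their means were 670 against 77.5 at 24 h and 3247 against 1690 at 48 h. Mesp1 changed by 3.74 ± 0.165 in induced arrays, against 3.44 ± 0.165 in uninduced ones, and the difference did not pass (adjusted p = 0.652). None of the 15 largest falls other than Lefty1 had a called difference. Lefty1 changed by -2.79 ± 0.135 in induced arrays, against -1.73 ± 0.135 in uninduced ones (adjusted p of the difference = 0.00207). The largest rises and falls were picked by their uninduced changes, which enter the difference. Called differences among them are therefore not independent of that choice.

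**Figure D5:**
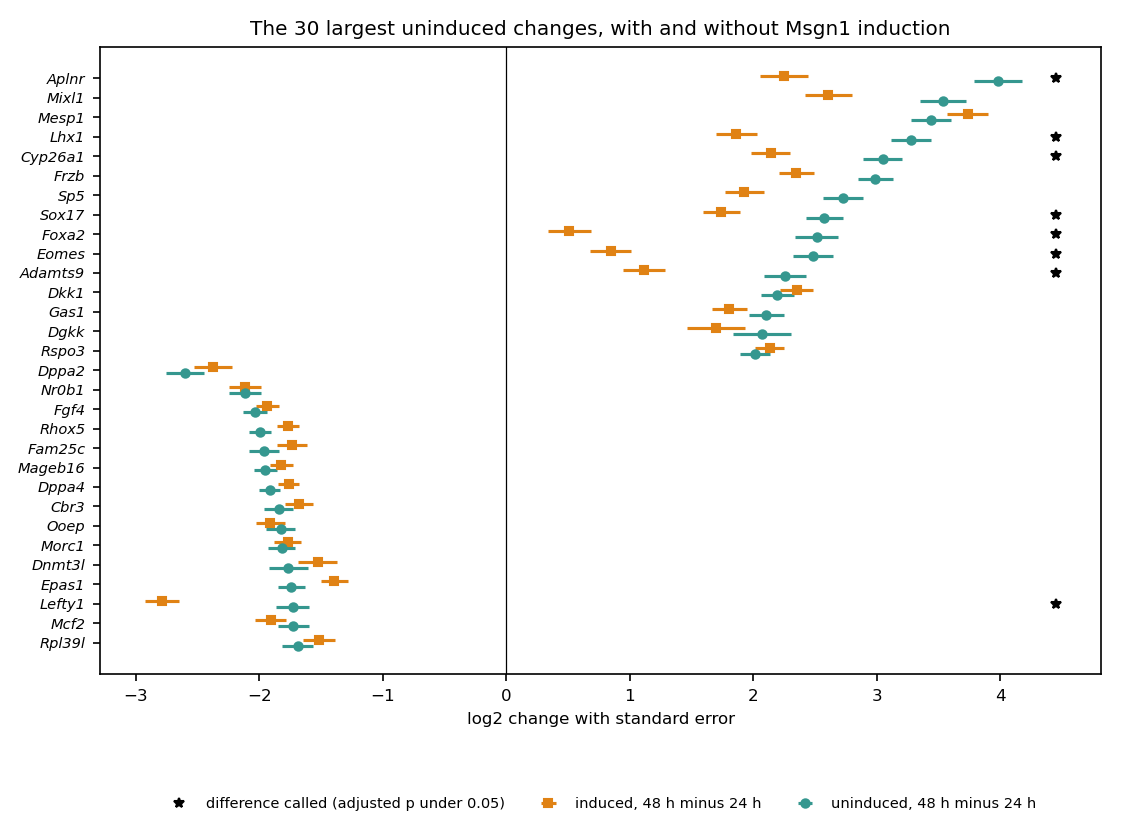
The 48 h minus 24 h log2 change (x axis, point with standard error) of the 15 largest uninduced rises and the 15 largest uninduced falls, in induced arrays (squares) and uninduced arrays (circles). Stars mark a called difference between them: 7 of the rises (Aplnr, Lhx1, Cyp26a1, Sox17, Foxa2, Eomes and Adamts9) and 1 of the falls (Lefty1). The genes were picked by the uninduced change, which enters the difference, so these counts are not independent of that choice.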

How the data were processed

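Total RNA of mouse embryoid bodies, 100 ng per sample, was labelled for 3′ expression arrays with 1 channel, per the labels' protocols, and 18 arrays were used. The deposited values were signal intensities on a linear scale for 45101 probe sets. GCOS is named in the submitters' processing notes. How GCOS computed the signal, and the target it was scaled to, is not given in the sources used here. Groups and replicate numbers came from the sample titles, and no 2 arrays held identical values.

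Values were analysed as log2(signal + 32). The medians of the arrays differed by at most 0.093 on that scale, and since a further normalization was to be added only above 0.25, none was. Of the probe sets, 64 controls were dropped, 34945 matched 1 gene, 932 several and 9160 none. Probe sets with a group mean at or above the 40th percentile of all values (signal 13.2) were retained. Each of the resulting 14282 genes was represented by its probe set of highest mean, and 6675 genes had more than 1 to choose from. Limma 3.58.1 in R 4.3.3 fitted 1 mean per group to all 18 arrays (12 residual degrees of freedom), moderating variances along an intensity trend. Benjamini-Hochberg adjustment covered all genes, and calls were made at an adjusted p under 0.05. The fit was tested on simulated data.

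Named genes were Msgn1, the stem cell markers, of the called genes without overlap between the groups the 15 that rose most and the 15 that fell most, passing over clone and predicted names, and up to 6 called members of each list with the largest changes (up to 2 where none was called). The 36 lists hold 632 genes, of which 38 had no probe set matched to 1 gene. Some genes are in more than 1 list and are counted in each. The comparison, the members and the lists were chosen with earlier results of these data known. Promoter windows came from RefSeq for the build named in the report.

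Results were recomputed after quantile normalization, with every probe set or only those above the 60th percentile, with offsets of 16 and 64, with probe sets averaged per gene, with an untrended or robustly trended variance, from the compared arrays only, with replicate number as a block, and without each single array. Figures were drawn with matplotlib 3.10.9.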

Additional observations from a re-analysis of the deposited data

Results flagged for a closer look

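For 42 of the 182 named genes the 48 h minus 24 h change differed between induced and uninduced embryoid bodies, by limma's test of the difference itself (induced change minus uninduced change, adjusted p under 0.05 over all 14282 genes). Over all genes 444 were called (3.11%), 209 with a positive difference (1.46%) and 235 with a negative one (1.65%). Each value below is that difference on the log2 scale. All 4 groups at 24 h and 48 h enter it, so it is not independent of the uninduced changes by which most of these genes were named, and their count is not read against that share. The cause of these differences was not tested.

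Over whole lists, the difference was called negative in 4 of 25 tested streak genes, 7 of 24 definitive endoderm genes, 4 of 12 node and axial genes and 3 of 21 presomitic genes, and positive in none of them. Such differences were not confined to these lists. They were called negative in 9 of 16 primed epiblast genes, 6 of 17 core pluripotency genes, 6 of 27 epithelial adhesion genes and 5 of 18 Wnt receptor and antagonist genes, and positive in none. Among the named members of the streak, endoderm, node and presomitic lists, apart from Dact1, Dll3 and Lefty1 given with the signalling genes, the difference was -2.0 for Foxa2, -1.73 for Aplnr, -1.64 for Eomes, -1.59 for Cer1, -1.41 for Lhx1, -0.98 for Gsc, -0.91 for Cyp26a1, -0.83 for Sox17 and -0.84 for Foxj1. The adjusted p of these 9 ran from 4.05e-05 for Foxa2 to 0.0293 for Sox17. At 24 h the induced means of Aplnr, Lhx1 and Cyp26a1 were 670, 273 and 388, against 77.5, 77.9 and 96.0 in uninduced arrays. At 48 h they were 3247, 1070 and 1804, against 1690, 1041.5 and 1021, so these negative differences did not come with lower induced means. Foxa2 and Sox17 did have lower induced means at 48 h, 168 and 317, against 772 and 597. Cer1 changed by 0.24 ± 0.223 in induced arrays, against 1.83 ± 0.223 in uninduced ones, so its induced change did not pass (adjusted p = 0.484; 25.8% of all genes passed in induced arrays).

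The signalling and matrix genes with a negative difference were Dact1 at -1.37, Adamts9 at -1.14, Lefty1 at -1.06, Fgf5 at -0.95, Jag1 at -0.92, Dll3 at -0.69, Tgfbr3 at -0.68, Dtx1 at -0.60, Tdgf1 at -0.57 and Fzd2 at -0.49. Of these, Fgf5 changed by -0.41 ± 0.136 in induced arrays, against 0.54 ± 0.136 in uninduced ones, and both changes passed. Stem cell and epiblast genes with a negative difference were Enpp3 at -1.14, Sox2 at -0.84, Utf1 at -0.81, Nanog at -0.70, Pou3f1 at -0.70 and Slc7a3 at -0.66. Nanog changed by -0.10 ± 0.0806 in induced arrays, which did not pass, against a rise of 0.61 ± 0.0806 in uninduced ones (adjusted p of the difference = 8.68e-04). The neural gene Fabp7 had a difference of -1.52: it changed by -0.53 ± 0.139 in induced arrays, against 0.99 ± 0.139 in uninduced ones.

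In the lateral and cardiac list 11 of 25 tested genes had a positive difference and none a negative one, and in the blood and endothelial list 7 of 26 and none. Bmp and Nodal genes had it in both directions, with 4 positive and 1 negative of 13 ligands, 1 and 3 of 19 receptors and antagonists, and 6 and 0 of 17 targets and effectors. Among the named members the positive ones were 1.89 for Msx2, 1.38 for Id2, 1.21 for Kdr, 1.07 for Msx1, 1.05 for Smad6, 0.99 for Bmp2, 0.69 for Tek and 0.61 for Hopx. Msx2 had signals of 506, 342 and 380.5 at 48 h, against 33.1, 28.8 and 20.4 at 24 h in induced arrays. Id2 changed by 0.52 ± 0.108 in induced arrays, against -0.86 ± 0.108 in uninduced ones. The imprinted growth factor gene Igf2 had the largest difference of the 42, at 2.40 (adjusted p = 4.08e-07), with 4989.9, 3326 and 3649.9 at 48 h, against 368, 465 and 498 at 24 h in induced arrays; 1 of its 2 probe sets was called in uninduced arrays. Further positive differences were those of Ifitm3 at 0.86, the p53 target genes Phlda3 at 0.84, Cdkn1a at 0.83 and Ccng1 at 0.77, Hoxb1 at 0.78, the Wnt inhibitor gene Nkd1 at 0.71 and Peg10 at 0.53. The last had the highest adjusted p of the 42 genes, 0.0497.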

How the results depend on the processing

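The counts of the 48 h minus 24 h comparison stayed within 1.5 times of 1830 higher and 1676 lower under each alternative run: they were 1678 and 1822 with quantile normalization, 1518 and 1359 with the 6 arrays alone, and 1361 to 1645 higher and 1248 to 1511 lower when a single array was left out. Of 182 named genes 179 were called; 27 of these lost the call without some single array, 15 under some other alternative and 29 under any, and none changed direction. The robust trend ended the calls of Ddit4, Aldoc and Ccne1. The counts of 314 higher and 260 lower for 24 h minus 12 h fell to 87 and 85 with the arrays of those groups alone, which leaves fewer residual degrees of freedom, and ranged from 100 to 474 higher and 89 to 440 lower when a single array was left out. The counts of the induced minus uninduced difference stayed within 1.5 times under each alternative run (150 to 231 higher and 157 to 259 lower). With the replicate block the counts were 1768 and 1622. Same-numbered arrays at 48 h and 24 h had correlated deviations of -0.13, 2e-04 and -0.19, so the numbers were not treated as pairs. Members called in the S phase list (3 lower) were 5 with quantile normalization, with the filter at the 60th percentile and with probe sets averaged; averaging also took the p53 target list from 9 lower to 5. Dim genes limit the comparison: signals under the offset of 32 give compressed changes, and no detection calls were used here.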

Other observations

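Several further gene groups were measured between 24 h and 48 h in uninduced embryoid bodies. Imprinted genes had 16 of 19 members tested, of which 8 rose, none fell (1 with probe sets averaged) and 8 did not pass (median change 0.18; over all genes tested 12.8% rose and 11.7% fell). Peg3, a paternally expressed zinc finger gene, had 1813, 1594 and 1179 at 48 h, against 531, 541 and 732 at 24 h (2.45-fold, limma adjusted p = 2.46e-07). Ndn, the necdin gene, had 1119, 1154 and 1024 at 48 h, against 641, 633 and 675 at 24 h (1.66-fold), with a probe set that can match other transcripts. Igf2 had 217, 257 and 268 at 48 h, against 131, 149 and 152 at 24 h (1.58-fold), and the receptor gene Igf2r that clears its product had 569, 479 and 404 at 48 h, against 274, 238 and 287 at 24 h. All 4 had separate ranges. Sgce (0.75 ± 0.139) and the G protein subunit gene Gnas (0.57 ± 0.0754) rose too.

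Targets of p53 had no member that rose: of 13 tested genes of 16, 9 fell and 4 did not pass (median change -0.36). Phlda3, which restrains Akt signalling, had 299, 339.5 and 284 at 48 h, against 523, 457 and 639 at 24 h (1.67-fold lower, adjusted p = 4.43e-05). The cell cycle inhibitor gene Cdkn1a had 409, 411 and 399 at 48 h, against 583, 504 and 639.9 at 24 h (1.38-fold lower, 1 of 2 probe sets called). The ubiquitin ligase gene Mdm2 (-0.40 ± 0.107), Sesn2 (-0.57 ± 0.152), Ccng1 (-0.38 ± 0.0873) and Trp73 (-0.37 ± 0.125) fell as well. Sesn2 lost the call without 24 h replicate 3, and Trp73 when any 1 of 5 arrays was left out. With probe sets averaged 5 genes fell and Cdkn1a, Mdm2 and Trp73 were not called, and without 24 h replicate 3 a gene of the list rose.

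Cell cycle lists stand here beside the shares over all genes tested, of which 12.8% rose and 11.7% fell. In S phase 1 of 19 genes rose, 3 fell and 15 did not pass (median change -0.07). Ccne1, the cyclin E1 gene, had 1236, 473 and 1106 at 48 h, against 1785, 1769.7 and 1852 at 24 h, with 48 h replicate 2 well below the others; its call (adjusted p = 0.0228) ended without that array, without 24 h replicate 1 or without 24 h replicate 3. Without 24 h replicate 1 the list held 1 fall and no rise, and without 24 h replicate 2 it held no rise. In M phase 3 of 19 tested genes rose, 1 fell and 15 did not pass (median change 0.06), with Mki67 at 0.49 ± 0.147, Cenpe at 0.52 ± 0.119, Cenpf at 0.42 ± 0.125 and Cdc20 at -0.17 ± 0.0528. The groups of Mki67 and of Cenpf overlapped, and both calls ended without 24 h replicate 1 or 2 or without 48 h replicate 1 or 2, which left 1 rise. The call of Cdc20 ended without 24 h replicate 1, 48 h replicate 1 or 48 h replicate 3.

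Hox and trophoblast genes were dim. Of 8 tested genes of Hox groups 1 to 5, Hoxb1 rose, with 24.7, 34.0 and 28.4 at 48 h, against 15.6, 11.1 and 16.9 at 24 h (adjusted p = 0.0224), a call lost without 24 h replicate 2 or 48 h replicate 2. That 1 rise of 8 is near the share over all genes tested, 12.8% higher. In Hox groups 6 to 13 none of 10 tested genes passed limma's test and 1, Hoxa7, had an unadjusted p under 0.05; Hoxa7 stood at -0.40 ± 0.19 and Hoxc6 at -0.30 ± 0.161. A gene of that list was called lower without 24 h replicate 3 or 48 h replicate 2. In the trophoblast list 10 of 15 genes were tested, of which Peg10 rose (0.29 ± 0.104), Esx1 fell (-0.31 ± 0.0949) and 8 did not pass; the call of Peg10 ended without any 1 array other than 24 h replicate 2, and that of Esx1 without 24 h replicate 1, 24 h replicate 3 or 48 h replicate 1. The 1 rise and 1 fall of the trophoblast list are near the shares over all genes tested, 12.8% higher and 11.7% lower. The summed signal of that list was 348.6 to 368.9 at 48 h and 286.2 to 319.4 at 24 h.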
